A study of Mus musculus with 8 samples.

Results

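Nonsense-mediated decay removes messenger RNAs whose coding sequence ends too early. During translation a ribosome that stops well before the last exon junction leaves the protein complex deposited at that junction in place, and the RNA helicase UPF1 with its partners then marks the message for destruction. Many genes of RNA-binding and splicing proteins make such transcripts by splicing in a "poison" exon that carries a stop codon, and several of these proteins bind their own RNA and so limit their own level. PRMT5, the enzyme whose gene was targeted in the knockout, adds symmetric methyl marks to arginines of histones and of the spliceosome's Sm proteins.

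The transcripts described here are those that the GENCODE annotation of GRCm38 labels as subject to nonsense-mediated decay. A transcript was a member if it had at least 80 counts in total over the 8 libraries, in a gene whose most counted protein-coding transcript (its main transcript) had at least 400. Of 3779 such annotated transcripts with counts, 2480 were in genes with a main transcript of 400 or more, and 2137 of these, in 1405 genes, also reached 80 counts. They were among 21153 alternative transcripts of any annotated type that met the same 2 minimums, in 5264 genes. The minimums left out 343 decay transcripts for a low total and a further 457 that had 80 counts but no main transcript of 400. At the edge of the first minimum, Ube2g2-205 (80 counts) and Rabgef1-206 (81) were included while Wdr3-202 (79) and Cds2-206 (78) were not. At the edge of the second, Mri1-201 and Faap20-207 (main transcript at 401 counts each) were included, and Slc50a1-209 (398) and Ncoa4-206 (397) were not. The measure used throughout is the ratio, log2 of (member count + 0.5) over (main count + 0.5) in a library, so that 0 means as many counts as the main transcript and -1 means 1 count for every 2. Members were thus chosen by measured values, their own total and that of the main transcript, and their levels are given as a description, with no test.

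RNA came from mouse primordial germ cells, the precursors of eggs and sperm, on a mixed C57BL/6 and 129 background at embryonic day 11.5. The 4 Control libraries were from Blimp1Cre;Prmt5flox/+ embryos, which carry the Cre recombinase and can lose 1 copy of the gene. Those labelled Prmt5 KO, also 4, were from Blimp1Cre;Prmt5 flox/flox embryos. In all 8, cells were sorted by a green fluorescent reporter under the dPE form of the Oct4 promoter, and 50 pg of total RNA entered each library, sequenced on a SOLiD instrument. Cre driven by Blimp1 acts where that gene is active, so deletion is limited to such cells and need not be complete; the labels do not name the floxed exons. Nor do they say whether the libraries of a group were from separate embryos, so each p-value measures the spread between libraries alone, and part of that may be technical. All 10 germ cell markers examined were above 1 CPM (counts scaled to library size) in every library. Their summed level was 2755 to 2951 CPM in Control and 2623 to 3171 CPM in Prmt5 KO. The 7 markers of somatic gonad and mesonephros, of which 4 were above 1 CPM in every library, summed to 132 to 209 CPM in Control and to 168 to 193 CPM in Prmt5 KO 2 to 4, but to 586 CPM in Prmt5 KO 1. The 5 markers of blood and endothelium with counts summed to 292 to 391 CPM in Control and 307 to 400 CPM in Prmt5 KO, with Ptprc below 1 CPM in every library. The globin genes Hba-a1, Hbb-bt and Hbb-y on that list had no matched counts. Summed over transcripts, counts per library ran from 4141854 to 14860645, lowest in Control 2 and Control 3. Members held 4.94% to 5.19% of them. Between 0 and 16 members had no count in a library. Member ratios correlated between libraries with r of 0.866 to 0.895 in pairs with Prmt5 KO 4 and 0.890 to 0.940 in the other pairs, a description across transcripts that share genes and reads.

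The annotation shows what these transcripts look like. A stop codon was annotated in 2136 of the 2137, and in 2123 (99.4%) it lay at least 50 bases before the last exon junction, the distance at which decay is classically triggered, with a median of 360 bases. Decay label and stop position come from the same annotation, so this share is no evidence that the transcripts decay. The stop was TGA in 1228, TAA in 501 and TAG in 407. In 1261 members the stop lay within the coding region of the main transcript, and in 746 outside its exons. It fell on the main transcript's own stop codon in 93, which leaves an added junction downstream as the difference, in its noncoding exon parts in 24 and across an exon edge in 12. The exon with the stop was an exon of the main transcript in 989 members, shared only part of its edges in 666 and had no counterpart there in 481. These last hold the poison exons.

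Poison exons of 7 splicing factor genes are shown because the stop can be read directly in them. Each runs from the first base of the exon to the premature stop, on the coding strand, in lower case with the stop in capitals, taken from the GENCODE M21 transcript sequences. Srsf3, Srsf6 and Srsf11 encode serine and arginine rich splicing proteins, Tra2b a related splicing activator, Snrpb the core Sm proteins B and B', Rbm39 a splicing coactivator and Hnrnpll an RNA-binding regulator of alternative splicing.
Srsf3-201: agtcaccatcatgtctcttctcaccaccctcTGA
Srsf6-201: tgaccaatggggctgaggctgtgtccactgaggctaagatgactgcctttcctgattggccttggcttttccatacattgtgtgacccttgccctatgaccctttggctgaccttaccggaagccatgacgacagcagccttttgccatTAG
Tra2b-206: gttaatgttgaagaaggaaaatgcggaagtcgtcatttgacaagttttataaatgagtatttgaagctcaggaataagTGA
Snrpb-203: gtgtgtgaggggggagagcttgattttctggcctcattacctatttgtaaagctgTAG
Rbm39-215: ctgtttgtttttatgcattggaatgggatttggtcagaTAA
Hnrnpll-203: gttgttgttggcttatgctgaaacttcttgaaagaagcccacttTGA
Srsf11-206: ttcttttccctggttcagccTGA
In GRCm38 these exons are chr17:29039454-29039909 (Srsf3, plus strand, exon 4 of 7), chr2:162932815-162933082 (Srsf6, plus strand, exon 3 of 7) and chr16:22258986-22259261 (Tra2b, minus strand, exon 2 of 10). Those on the minus strand also include chr2:130176629-130176752 (Snrpb, exon 3 of 8), chr2:156152463-156152513 (Rbm39, exon 14 of 18), chr17:80044940-80045022 (Hnrnpll, exon 7 of 14) and chr3:158024123-158024231 (Srsf11, exon 4 of 9). The whole exon is 456 bases in Srsf3, 268 in Srsf6, 276 in Tra2b, 124 in Snrpb, 51 in Rbm39, 83 in Hnrnpll and 109 in Srsf11.

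Most bases of a typical member are also in its main transcript, and this sets what a count can say. Members had a median of 57 exonic bases outside the main transcript's exons. Of them 727 had none, 829 had 100 or more, and only in 118 were most bases their own. Reads appear to be counted for every transcript they overlap, and 44 members had exactly the counts of their main transcript in all 8 libraries. The ratio rose with the share of the main transcript that the member covers. Its median was -2.81 in 566 members covering under 25%, -1.502 in 585 covering 25% to 50%, -0.49 in 392 covering 50% to 75% and -0.017 in 594 covering more. Spearman's rho between the mean ratio and this share was 0.81 over the 2137 members, and 0.83 over those with no base of their own. A ratio therefore does not give the fraction of a gene's messages that are decay targets, since reads on shared exons may count for both transcripts.

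**Figure D1:**
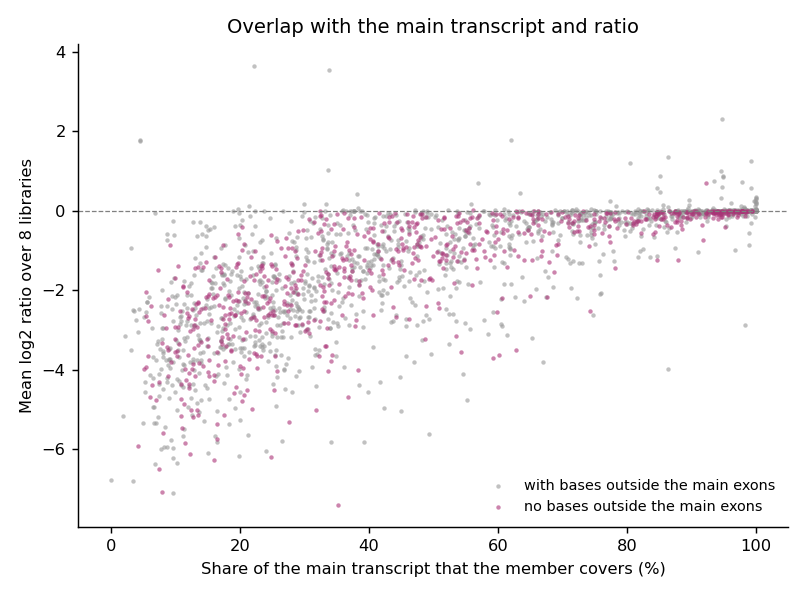
Each point is 1 of the 2137 members: the x axis is the percentage of the main transcript's exonic bases that the member covers, and the y axis the mean over 8 libraries of the log2 ratio of member to main counts. Coloured points, the 727 members with no base of their own, follow the same course as the others, from about -2.81 at low cover to near 0 at full cover.

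In ratio, members lay between the other classes of alternative transcript. The median of the mean log2 ratio was -0.93 in members, -0.53 in the 9988 other protein-coding transcripts, -2.23 in the 5648 with a retained intron and -2.43 in the 3379 processed transcripts without a coding region. The value over all 21153 was -1.43. Median cover of the main transcript had the same order. It was 45.8% in members, 55.9% in other protein-coding transcripts, 20.7% in those with a retained intron and 18.5% in processed transcripts. The ratios were not adjusted for this cover, so they do not rank the classes by abundance. By construction no other protein-coding transcript can exceed the main one in total, whereas 163 members did.

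The highest mean ratios belonged to decay-labelled transcripts with many bases of their own. Alg13-210, from the gene of a subunit of the enzyme that adds the second sugar in N-glycosylation, had log2 ratios of 2.52, 3.11, 3.90 and 3.40 in Control libraries 1 to 4, against 5.36, 3.52, 4.17 and 3.14 in Prmt5 KO libraries 1 to 4. It has 3767 bases outside the exons of the main transcript Alg13-202. Qk-202, from the gene of the RNA-binding protein Quaking, had 2.79, 3.41, 4.01 and 3.02 in Control and 4.98, 3.08, 3.98 and 3.02 in Prmt5 KO. Both were highest in Prmt5 KO 1, and the groups overlapped. Glo1-201 (glyoxalase) was steadier, at 2.36 ± 0.05 in Control, against 2.26 ± 0.18 in Prmt5 KO (SD, n = 4 each). Kctd18-209 was at 1.5 ± 0.59 and 2.05 ± 0.82, and Serf2-206 at 1.80 ± 0.58 and 1.73 ± 0.96. Exons of Serf2-206 also overlap Hypk on the same strand, and those of Kctd18-209 overlap Sgo2a on the opposite strand, so some counts may belong to those genes.

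At the other end stood transcripts with few counts in well-expressed genes. Copa-203, from the gene of a coat protein of Golgi vesicles, had 87 counts against 12412 for its main transcript and a mean log2 ratio of -7.48 ± 1.39 in Control, against -7.30 ± 1.08 in Prmt5 KO. For Jarid2-207, whose gene encodes an accessory subunit of the Polycomb complex that methylates H3K27, the values were -7.30 ± 0.90 and -6.91 ± 0.51. Ahctf1-203, from the gene of the nuclear pore protein ELYS, was at -7.15 ± 1.15 and -7.01 ± 1.84 (SD, n = 4 each). With under 100 counts each over 8 libraries, these values have wide counting error. Copa-203 and Ahctf1-203 have no base of their own and Jarid2-207 has 98, so the ratios do not give the level of a separate transcript. Copa-203 covers 35.2% of its main transcript, Jarid2-207 9.59% and Ahctf1-203 7.99%. Over 2136 members, Spearman's rho between the mean ratio and the distance of shared bases from the main transcript's 3' end was -0.33. The cause of the low ratios was not tested.

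The comparison of interest is whether the counts of decay transcripts, relative to the main transcript, differed when Prmt5, a modifier of splicing proteins, was deleted. No member's ratio passed the edgeR or limma test, and 1, Plcd4-209, passed in DESeq2. Over all members, the median log2 ratio per library was -0.843, -0.873, -0.862 and -0.840 in Control libraries 1 to 4, against -0.872, -0.893, -0.909 and -0.861 in Prmt5 KO libraries 1 to 4. The group means of these medians were -0.855 ± 0.016 and -0.884 ± 0.021 (SD, n = 4 each), and the groups overlapped. The next sums run over members, so a main transcript enters once for each of its members. Members had 50.8 ± 0.558 counts per 100 main counts in Control, against 50.6 ± 0.613 in Prmt5 KO. The median fitted change over members was -0.00094 on the log2 scale, beside 4.6e-05 over all 21153 transcripts.

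**Figure D2:**
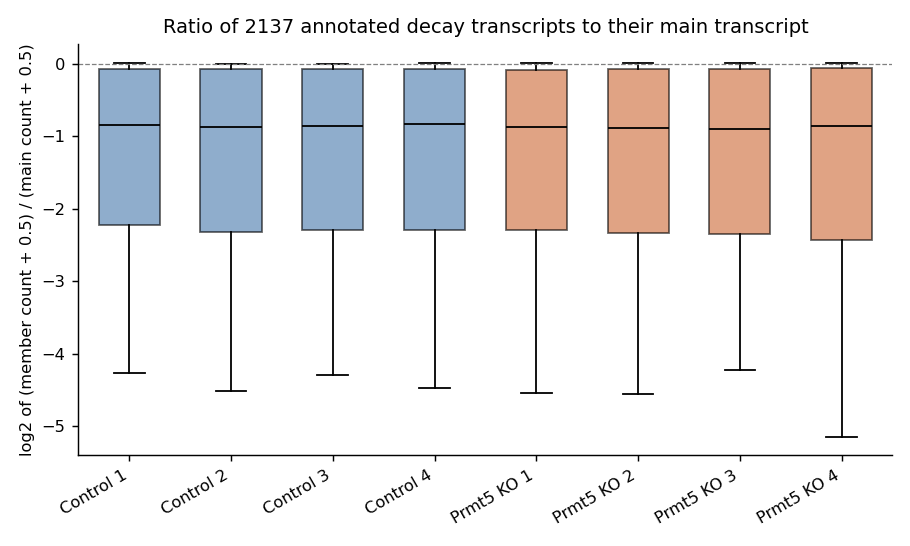
Log2 ratio of member to main counts (y axis) for the 2137 members in each of the 8 libraries (x axis): the line is the median, the box the quartiles and the whiskers the 5th and 95th percentiles. Medians lie between -0.909 (Prmt5 KO 3) and -0.840 (Control 4), and the whisker reaches lowest in Prmt5 KO 4.

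In edgeR's quasi-likelihood test with Benjamini-Hochberg adjustment over 21153 transcripts, 0 of 2137 members passed 0.05, with a smallest adjusted p of 0.647. The background was 0.0% called. At an unadjusted p under 0.05 there were 116 members in 95 genes, or 5.43%, against a background of 5.34%. Of these 43 were higher in Prmt5 KO (background 2.29%) and 73 lower (background 3.05%). The libraries of the 2 groups did not overlap for 67 members in 59 genes, against 3.78% of all transcripts. That was 21 members higher (background 1.65%) and 46 lower (background 2.13%), and 46 of the 67 were also among the 116. Shares this near the background are not a result about the members. limma on the log2 ratios called 0 members and had 142 at an unadjusted p under 0.05 (background 6.60%). The DESeq2 call of 1 member had an adjusted p of 0.0449, where 0.109% of all transcripts were called. On simulated counts DESeq2 called 65 of 20953 unchanged transcripts, where edgeR and limma called 4 each. DESeq2 also found more of the planted changes, 81% of 2-fold and 96% of 4-fold ones, against 71% and 85% in edgeR. The simulation used edgeR's own estimates of spread, so these rates need not hold in the data.

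Because a missed threshold does not show that values were alike, the intervals matter. For 1600 members (74.9%), limma's 95% interval of the difference between group means lay within 2-fold in both directions, as it did for 70.5% of all transcripts. For 1248 it lay within 1.5-fold, as it did for 11339 of all 21153 transcripts. Shared reads hold a ratio steady, so such an interval does not show that the decay transcript itself was unchanged. The share within 2-fold was 78.5% among members with no base of their own and 70.0% among those with 100 or more. It was 50.8% in the 118 members whose bases were mostly their own. A fitted change beyond 2-fold was seen in 59 members, 26 higher and 33 lower, none of which passed the edgeR test. Among all 21153 transcripts it was seen in 665, 337 higher and 328 lower.

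Split by how the stop arises, the counts were as follows. Of the 481 members whose stop lay in an exon absent from the main transcript, 19 were at an unadjusted p under 0.05, 5 higher and 14 lower, with a median change of -0.00017. Where the exon differed in an edge, 47 of 666 were, and where it was an exon of the main transcript, 50 of 989. These shares of 3.95%, 7.06% and 5.06% stand beside 5.34% over all transcripts, and a difference between the classes was not tested. Among the 829 members with 100 or more bases of their own, some of whose counts come from bases the main transcript lacks, 52 (6.27%) were at that p and the median change was -0.00053.

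**Figure D3:**
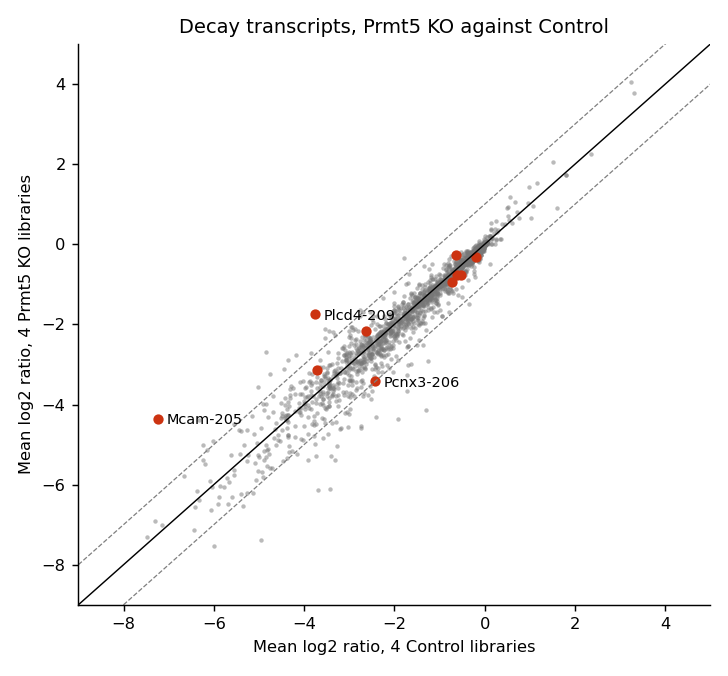
Each point is a member, with its mean log2 ratio over the 4 Control libraries on the x axis and over the 4 Prmt5 KO libraries on the y axis; the solid line marks equality and the dashed lines a 2-fold difference. The 10 members with the smallest p in either direction are in red; Plcd4-209 and Mcam-205 lie above the upper dashed line, and 0 of 2137 members were called by edgeR.

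Splicing factor genes were examined as a list of 57, of which 35 had a member, 70 members in all. Among the member with the highest total in each of the 35 genes, edgeR called none, 3 had an unadjusted p under 0.05 (8.57%, against 5.34% of all transcripts) and 33 had an interval within 2-fold (94.3%, against 70.5%). Nothing particular to the list is read from these shares. The median change was -0.017. Mean log2 ratios were within 0.5 of 0 in 24 of the 35.

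The poison-exon transcripts printed above show this library by library. Srsf3-201 had log2 ratios of -0.18, -0.25, -0.20 and -0.18 in Control libraries 1 to 4, against -0.16, -0.19, -0.24 and -0.12 in Prmt5 KO libraries 1 to 4. The groups overlapped, and limma's 95% interval of the difference was -0.04 to 0.09. Srsf6-201 had -0.10, -0.11, -0.12 and -0.06 in Control and -0.14, -0.07, -0.10 and -0.14 in Prmt5 KO, with an interval of -0.07 to 0.04. The poison exon makes up 456 of 2594 bases of Srsf3-201 and 268 of 1666 bases of Srsf6-201.

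Tra2b-206 was lower relative to its main transcript than those, at -0.99, -1.06, -0.86 and -0.86 in Control and -0.99, -1.23, -1.25 and -0.95 in Prmt5 KO. Its groups overlapped, and its fitted change of -0.16 (SE 0.0871) did not pass the test (adjusted p = 1.00, edgeR). Snrpb-203 had -0.22, -0.21, -0.16 and -0.18 in Control and -0.17, -0.31, -0.19 and -0.18 in Prmt5 KO, with Prmt5 KO 2 below the rest. The Sm proteins of this gene are textbook substrates of PRMT5.

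Rbm39-215 and Hnrnpll-203 had nearly the counts of their main transcripts. Rbm39-215 ranged from -0.02 to -0.01 in both groups. Hnrnpll-203 ranged from -0.02 to 0.01 in Control and from -0.01 to 0.00 with Prmt5 deleted. Srsf11-206, which covers 23.0% of its main transcript, had -2.16, -2.33, -2.57 and -2.67 in Control and -2.43, -2.09, -2.64 and -2.86 in Prmt5 KO, so its spread within a group was wider and the groups overlapped.

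The 3 splicing factor transcripts at an unadjusted p under 0.05 all had negative changes. Tardbp-201, from the gene of the RNA-binding protein TDP-43, which binds its own message and lowers its own level, had -2.13, -1.91, -2.06 and -1.98 in Control and -2.38, -2.85, -2.26 and -2.59 in Prmt5 KO. Every Prmt5 KO library lay below every Control library, the only such case among the 35. The fitted change was -0.47 (SE 0.133), with an adjusted p of 0.820 (edgeR). Its main transcript overlaps Masp2 on the opposite strand.

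Hnrnpr-206 had -2.37, -2.38, -2.22 and -2.68 in Control and -2.99, -2.67, -2.84 and -3.79 in Prmt5 KO, a fitted change of -0.57 (SE 0.224) and an adjusted p of 0.925 (edgeR). Control 4 lay just below Prmt5 KO 2, and Prmt5 KO 4 was the lowest. Hnrnpu-206 had -0.29, -0.31, -0.35 and -0.39 in Control and -0.38, -0.39, -0.41 and -0.42 in Prmt5 KO, a change of -0.07 (SE 0.0221, adjusted p = 0.843, edgeR), although its own level, scaled to library size in place of the main transcript, had a fitted change of 0.035. Both genes encode heterogeneous nuclear ribonucleoproteins, which package nascent RNA. Hnrnpdl-201, from the same wider family, was at -0.31 ± 0.08 in Control, against -0.55 ± 0.21 in Prmt5 KO, with overlapping groups and an adjusted p of 0.998 (edgeR).

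Further members of the list were as follows. Srsf1-204 was at -2.30 ± 0.15 in Control, against -2.42 ± 0.12 in Prmt5 KO, and Srsf2-202 at -0.41 ± 0.03 and -0.43 ± 0.04. Ptbp1-201, a transcript of the polypyrimidine tract binding protein gene, was at -1.44 ± 0.11 and -1.43 ± 0.13 (SD, n = 4 each). Ptbp3-213 was too variable to compare, running from -7.19 to -3.21 in Control and from -6.36 to -4.40 in Prmt5 KO. Ptbp3-213 and Hnrnpr-206 were the members whose intervals went past 2-fold.

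**Figure D4:**
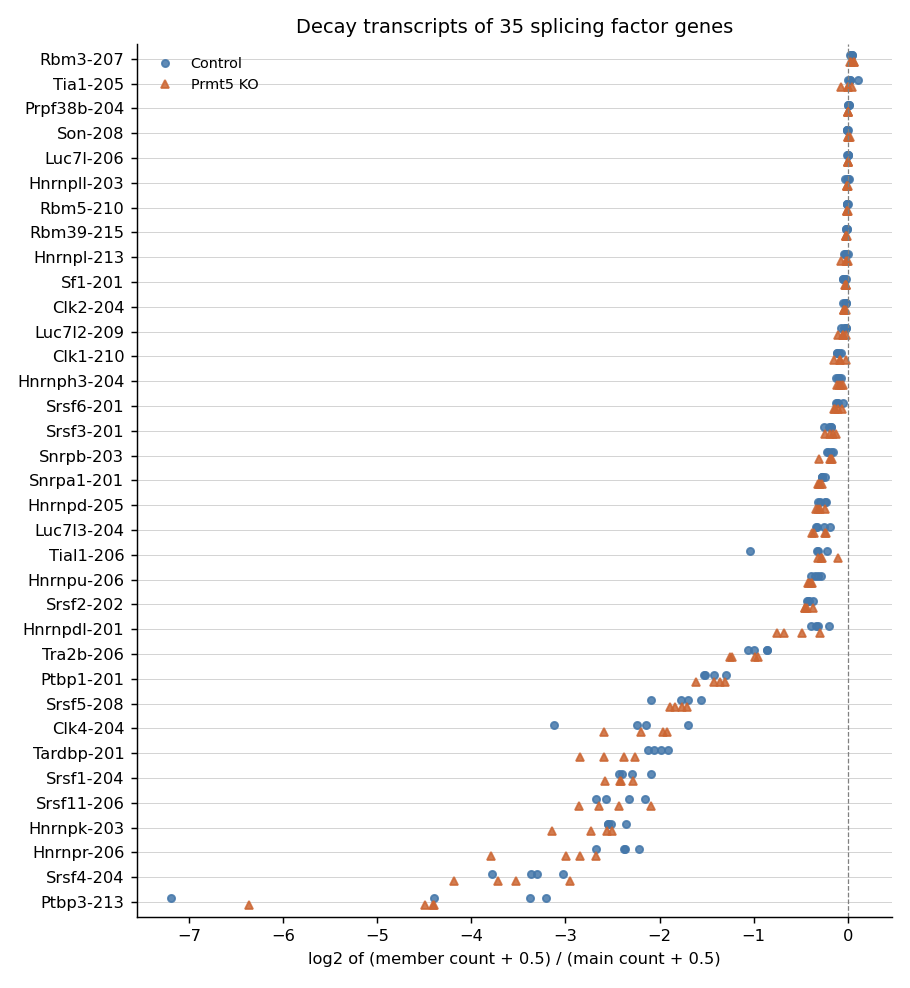
Log2 ratio of member to main counts (x axis) in each library for the most counted decay transcript of 35 splicing factor genes (y axis), circles for the 4 Control and triangles for the 4 Prmt5 KO libraries. The groups overlap in 34 rows and separate only for Tardbp-201, and 24 rows lie within 0.5 of 0.

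Since edgeR called no member, the 5 per direction with the smallest unadjusted p were described. Those with lower ratios in Prmt5 KO include small and tightly measured differences. Cep57-205 comes from the gene of a centrosome and microtubule protein (member at chr9:13808549-13827025, minus strand). It had -0.57, -0.41, -0.60 and -0.51 in Control libraries 1 to 4, against -0.81, -0.73, -0.71 and -0.82 in Prmt5 KO libraries 1 to 4. The groups did not overlap, and the fitted change was -0.25 (SE 0.0486, adjusted p = 0.647, edgeR). Atp2c1-218, from the gene of the calcium and manganese pump of the Golgi (chr9:105403539-105461030, minus strand), had -0.61, -0.64, -0.60 and -0.63 in Control and -0.72, -0.72, -0.80 and -0.80 in Prmt5 KO. That is a change of -0.14 (SE 0.0244, adjusted p = 0.647, edgeR). Both it and its main transcript overlap Aste1 on the opposite strand.

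The exon stretches that end these 2 coding regions are printed to show the kinds of stop, again with the stop in capitals.
Cep57-205: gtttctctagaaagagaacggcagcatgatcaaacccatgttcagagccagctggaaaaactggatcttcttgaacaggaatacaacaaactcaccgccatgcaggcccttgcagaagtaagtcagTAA
Atp2c1-218: ttttaccccaagattTAA
In Cep57-205 the stop follows where exon 5 (chr9:13816817-13817003) runs on past an edge of the main transcript's exon. The Atp2c1-218 stop lies in exon 23 (chr9:105407116-105407203), which the main transcript lacks.

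Pcnx3-206, a transcript of a pecanex family membrane protein gene (chr19:5665416-5666982, minus strand), had the widest difference of the 5. Its log2 ratios were -2.47, -2.77, -2.03 and -2.49 in Control and -3.54, -3.14, -3.39 and -3.62 in Prmt5 KO. The groups did not overlap, with a change of -0.98 (SE 0.198, adjusted p = 0.647, edgeR). It has no base of its own, covers 9.98% of the main transcript, and had 9 to 49 counts in a library, while the main transcript overlaps Map3k11 on the opposite strand. Rbm38-206, from the gene of an RNA-binding protein of the p53 pathway, was at -0.72 ± 0.03 in Control, against -0.95 ± 0.10 in Prmt5 KO. Bcas2-206, from the gene of a subunit of the spliceosome's Prp19 complex, was at -0.20 ± 0.01 and -0.31 ± 0.05 (SD, n = 4 each). Each had non-overlapping groups and an adjusted p of 0.753 (edgeR). For Rbm38-206, whose exons overlap Gm20490 on the opposite strand, the level scaled to library size went the other way from the ratio, with a fitted change of 0.23.

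Higher ratios in Prmt5 KO were led by Samhd1-204, from the gene of a deoxynucleotide triphosphate hydrolase that restricts viruses (chr2:157099401-157135093, minus strand). It had -0.59, -0.70, -0.40 and -0.83 in Control and -0.20, -0.29, -0.39 and -0.18 in Prmt5 KO. Prmt5 KO 3 lay just above Control 3, so the groups met without overlap. The change was 0.40 (SE 0.0854, adjusted p = 0.747, edgeR).

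Plcd4-209, from a phospholipase C gene (chr1:74544364-74565977, plus strand), had -4.09, -3.64, -3.42 and -3.92 in Control and -1.43, -0.57, -1.23 and -3.75 in Prmt5 KO. In this case 3 of 4 Prmt5 KO libraries were far above Control and Prmt5 KO 4 lay among the Control libraries. Its change of 2.63 (SE 0.636) had an adjusted p of 0.753 in edgeR and 0.0449 in DESeq2. Counts were 8, 3, 3 and 12 in Control and 105, 164, 52 and 4 in Prmt5 KO. Its exons and those of the main transcript overlap Zfp142 on the opposite strand.

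Mcam-205 is a transcript of the gene of the adhesion molecule CD146, a marker of vessel-associated cells (chr9:44134469-44138934, plus strand). It had 0, 1, 0 and 3 counts in Control libraries 1 to 4, against 59, 16, 20 and 17 in Prmt5 KO libraries 1 to 4. The main transcript had 105 to 260 counts in Control and 390 to 679 in Prmt5 KO. The log2 ratios were -8.81, -6.23, -7.72 and -6.22 in Control and -3.51, -4.56, -4.64 and -4.69 in Prmt5 KO, without overlap. Its change of 3.13 (SE 0.783, adjusted p = 0.753, edgeR) rests on very few Control counts, and ran from 2.65 without Control 1 to 4.27 without Control 4. Prmt5 KO 1, the library with the highest sum of somatic markers (586 CPM), was also highest here. Prmt5 KO 2 to 4 had 168 to 193 CPM of those markers. The sum of blood and endothelium markers, which lacks the globin genes, was 307 CPM in Prmt5 KO 1, within the Control range. Without Prmt5 KO 1 the change was 2.73. A link between cell makeup and this ratio was not tested. In RNA from a sorted pool, a different number of cells of a type and a different amount of RNA per cell cannot be told apart. Mcam-205 also overlaps Gm10687 on the opposite strand.

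Pank2-206, from the gene of a mitochondrial enzyme of coenzyme A synthesis, was at -3.72 ± 0.21 in Control, against -3.15 ± 0.14 in Prmt5 KO. Mtx1-205, from the gene of a protein import factor of the outer mitochondrial membrane, was at -2.64 ± 0.18 and -2.15 ± 0.12 (SD, n = 4 each). Both had separate groups, and their adjusted p-values were 0.753 and 0.777 (edgeR). Pank2-206 has no base of its own, covers 8.67% of its main transcript and had 8 to 36 counts in a library. Mtx1-205 had 7 to 65 counts in a library. The level of Mtx1-205 scaled to library size had a fitted change of -0.34, opposite in sign to its ratio. The main transcript of Pank2 overlaps Gm14233 on the same strand and Rnf24 on the opposite strand, and that of Mtx1 overlaps Gm43737 on the opposite strand.

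**Figure D5:**
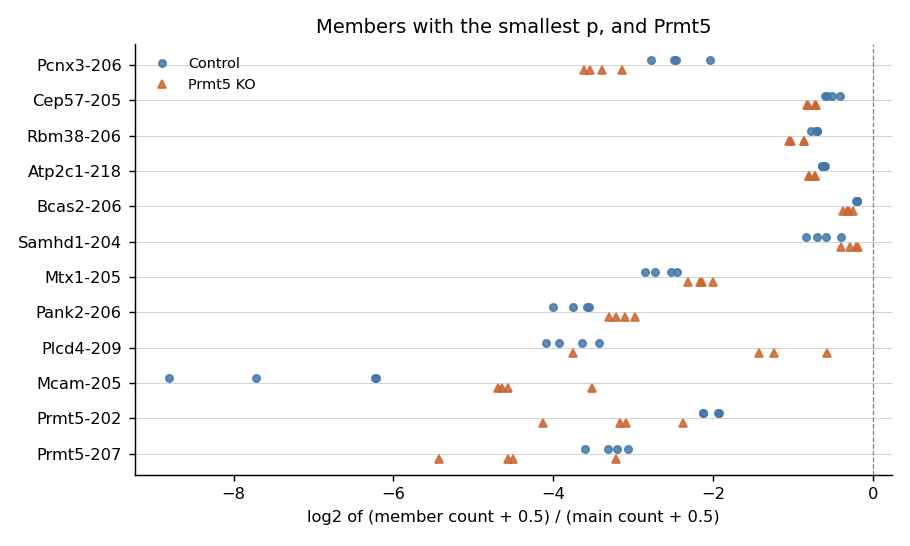
Log2 ratio of member to main counts (x axis) in each library for the 5 members per direction with the smallest unadjusted p and the 2 members of Prmt5 (y axis), circles for the 4 Control and triangles for the 4 Prmt5 KO libraries. The groups are separate in 10 of the rows; in Plcd4-209 Prmt5 KO 4 lies among the Control libraries, and in Prmt5-207 Prmt5 KO 2 does.

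The targeted gene has members of its own. At gene level Prmt5 was at 138 ± 40.6 CPM in Control, against 35.5 ± 6.49 CPM in Prmt5 KO (SD, n = 4 each), a log2 fold change of -1.95 (SE 0.272, adjusted p = 0.0388, edgeR), where 0.0273% of 10990 genes were called. That call ended without any single library other than Control 1, with adjusted p from 0.0578 to 0.233 (edgeR), while the change stayed between -2.11 and -1.82. In DESeq2 the adjusted p was 9.7e-09, and in edgeR without a filter on low counts it was 0.0023. Prmt5-202 (chr14:54511206-54517435, minus strand) has no base of its own and ends with a stop in exon 2, printed here up to the stop in capitals because this is the gene deleted.
Prmt5-202: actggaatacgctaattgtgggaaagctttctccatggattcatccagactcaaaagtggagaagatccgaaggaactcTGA
It had 138, 87, 82 and 154 counts in Control and 13, 40, 26 and 12 in Prmt5 KO, where the main transcript Prmt5-201 had 529, 382, 313 and 673, and 236, 209, 237 and 106. The log2 ratio was -1.93, -2.13, -1.93 and -2.12 in Control and -4.13, -2.37, -3.16 and -3.09 in Prmt5 KO. All Prmt5 KO libraries lay below all Control libraries, with Prmt5 KO 1 the lowest and Prmt5 KO 2 nearest to Control. The change of -1.07 (SE 0.305) had an adjusted p of 0.820 (edgeR). Prmt5-207 had -3.06, -3.20, -3.32 and -3.60 in Control and -5.43, -3.22, -4.50 and -4.56 in Prmt5 KO, where Prmt5 KO 2 was within the Control range (adjusted p = 0.993, edgeR). The ratios compare exons within a gene part of which was deleted, so loss of exons and altered splicing cannot be told apart in them.

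Among other genes chosen after their values were seen, Tmem234, which encodes a small transmembrane protein, had the most members of any gene, 13. All 13 had a negative change, from -1.77 to -0.16. An unadjusted p under 0.05 (edgeR) was seen in 11, where 3.05% of all transcripts were lower at that p. The groups did not overlap in 6, where 2.13% of all transcripts were lower without overlap. These members share exons and the same main transcript, so they are not separate observations. Tmem234-219, with the lowest value, had -2.90, -2.35, -3.41 and -2.33 in Control and -3.74, -4.56, -4.54 and -5.53 in Prmt5 KO. Its change of -1.77 (SE 0.415) had an adjusted p of 0.753 in edgeR and 0.0726 in DESeq2. The main transcript overlaps Dcdc2b on the opposite strand. Mdm2-209, from the gene of the ubiquitin ligase that degrades p53, was at -0.04 ± 0.01 in Control, against -0.03 ± 0.01 in Prmt5 KO (SD, n = 4 each).

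The factors that carry out decay were also measured, at gene level. All 28 genes of the list were tested and none was called by edgeR or DESeq2, while 3 had an unadjusted p under 0.05 (background 8.15%). The median log2 change was 0.10, beside 0.028 over all genes. Rbm8a, which encodes a core protein of the exon junction complex, was at 180, 181, 184 and 177 CPM in Control libraries 1 to 4, against 99.6, 131, 107 and 143 CPM in Prmt5 KO libraries 1 to 4. No Prmt5 KO library reached Control, and the change was -0.59 (SE 0.177, adjusted p = 0.409, edgeR). Ruvbl1, which encodes an ATPase that supports assembly of decay complexes, was at 481 ± 64.5 CPM in Control, against 636 ± 82.9 CPM in Prmt5 KO (adjusted p = 0.457, edgeR). The third was Etf1, the translation termination factor, with a change of 0.40 (SE 0.163, adjusted p = 0.557, edgeR). Upf1, the central helicase, was at 13.3 ± 2.45 CPM in Control, against 9.14 ± 4.06 CPM in Prmt5 KO, with a change of -0.53 (SE 0.541, adjusted p = 0.845, edgeR), and was named after its value was seen.

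Decay factors make decay transcripts too, and 2 of the 28 genes had a member. Smg1-204, from the gene of the kinase that phosphorylates UPF1, split the libraries without regard to group. It had -0.68, -2.48, -2.61 and -0.71 in Control and -1.40, -2.58, -0.73 and -0.38 in Prmt5 KO, low in Control 2, Control 3 and Prmt5 KO 2. Smg6-202, from the gene of the endonuclease that cuts the target RNA, had -0.07, -0.31, -0.40 and -0.03 in Control and -0.82, -0.03, -0.23 and -0.12 in Prmt5 KO. Both had overlapping groups and an adjusted p of 1.00 (edgeR).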

How the data were processed

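RNA was measured in 8 libraries, 4 Control and 4 Prmt5 KO, grouped by their titles. Each deposited file gives read counts, as whole numbers per transcript, and lists only transcripts with at least 1 count. Per the submitters' processing notes the builds were GRCm38 and mm10; for the aligner, counter, annotation release and strand, nothing is given in the sources used here.

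Identifiers were matched to GENCODE M21: 64258 of 66262 (97.0%), the others holding 1.75% to 1.90% of a library's counts. Exon structures are those of M21, which may differ from the annotation used in counting. In 75 member genes another coding transcript tied with the main one. Counts of alternative transcripts were tested with edgeR 4.0.16 (quasi-likelihood, robust) with log(main count + 0.5) as offset, so the coefficient is the log2 change of the ratio, and Benjamini-Hochberg adjustment at 0.05 over 21153 transcripts. Standard errors are the unshrunk coefficient's size over the square root of F. Gene values are each gene's highest-total transcript, TMM-scaled (10990 genes). Alternatives used limma 3.58.1, DESeq2 1.42.0, R 4.3.3 and other scalings, filters, pseudocounts, a replicate block and left-out libraries. The statistics were tested on simulated data.

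Genes named were Prmt5; the 5 members per direction with the smallest p, at most 1 per gene, as none passed; the 5 highest and 3 lowest ratios; the most counted member of each splicing factor and decay factor gene; members next to each minimum; and the decay factors with the smallest p. Mdm4 had no member. The members, lists and rules were chosen with earlier results of these data known, and the printed sequences, Tmem234, Mdm2, Upf1 and Etf1 after their values were seen.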

Additional observations from a re-analysis of the deposited data

Results flagged for a closer look

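In 7 of 122 groups of 4 libraries examined for named members, 1 library lay far from the other 3. Chance flags about 1 group in 20, or 6.1 of 122, so the number of flags is near what chance gives. In Prmt5 KO 1, Mcam-205 had a log2 ratio of -3.51, above the other 3 at -4.69 to -4.56, and Ptbp3-213 had -6.36, below the others at -4.49 to -4.40. Hnrnpk-203 was at -2.36 in Control 1, above the others at -2.55 to -2.52, and Snrpa1-201 at -0.246 in Control 3, just above -0.278 to -0.273. Snrpb-203 stood at -0.308 in Prmt5 KO 2, below the others at -0.189 to -0.172. Tial1-206 was at -1.04 in Control 2, below -0.332 to -0.223. Ube2g2-205 was at -5.71 in Prmt5 KO 4, below -3.69 to -3.54.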

How the results depend on the processing

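The count of 0 called members held under every alternative run with edgeR or limma, including each left-out library and the replicate block. DESeq2 called 1 member and gave no adjusted p for 2. Members at an unadjusted p under 0.05 numbered 116 in the edgeR ratio test. They were 193 with the TMM library size as offset and 192 with edgeR's RLE (relative log expression) library size. Those 2 offsets test a transcript's level and not its ratio. The number was 89 to 118 on leaving out a library and 51 among transcripts with 100 or more bases of their own. Leaving out 2 libraries at a time, chosen after seeing the data, gave 92 without Control 2 and 3, 107 without Prmt5 KO 1 and 4, and 106 without Prmt5 KO 4 and Control 2, with 0 called in each. The gene-level call of Prmt5 was lost with the replicate block (log2 fold change -1.92, adjusted p = 0.130, edgeR), and the fold change ran from -2.11 to -1.82 on leaving out a library. Replicate numbers did not pair the libraries: same-numbered libraries had correlations of -0.017 to 0.043 in their deviations of ratios and 0.0016 to 0.069 in those of gene levels, and the own number correlated best for 1 of 4 Control and 2 of 4 Prmt5 KO libraries. The replicate block gave 96 members at an unadjusted p under 0.05 and changed no other call. Shares over all transcripts are not given beside the counts under these alternatives. The counts are therefore not read as a result about the members.

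Of 51 named changes under all alternatives (1037 values), 939 kept direction and call, 97 turned direction, 1 gained a call (Plcd4-209, DESeq2) and 21 members never turned. The turned values, on the log2 scale, were as follows, and their cause was not tested beyond the change of quantity that the library-size offset brings. Leaving out Prmt5 KO 4 and Control 2 put Clk1-210 at -0.010, Hnrnpll-203 at -0.0032, Srsf11-206 at 0.046, Srsf3-201 at -0.012, Tial1-206 at -0.0036 and Smg1-204 at -0.42. DESeq2 put Clk4-204 at 0.023. The RLE library size as offset put Mtx1-205 at -0.34, Rbm38-206 at 0.24, Clk4-204 at 0.13, Hnrnpd-205 at 0.11, Hnrnpu-206 at 0.040, Luc7l2-209 at 0.56, Luc7l3-204 at 0.43, Prpf38b-204 at 0.21, Rbm39-215 at 0.16 and Rbm5-210 at -0.061. It also put Snrpa1-201 at 0.32, Snrpb-203 at 0.31, Srsf1-204 at 0.34, Srsf11-206 at 0.27, Srsf3-201 at -0.026, Srsf4-204 at 0.23, Srsf5-208 at 0.19, Tra2b-206 at 0.081 and Smg6-202 at 0.21. The TMM library size as offset put Mtx1-205 at -0.34, Rbm38-206 at 0.23, Clk4-204 at 0.12, Hnrnpd-205 at 0.11, Hnrnpu-206 at 0.035, Luc7l2-209 at 0.55, Luc7l3-204 at 0.42, Prpf38b-204 at 0.20, Rbm39-215 at 0.15 and Rbm5-210 at -0.064. It also put Snrpa1-201 at 0.31, Snrpb-203 at 0.30, Srsf1-204 at 0.33, Srsf11-206 at 0.27, Srsf3-201 at -0.031, Srsf4-204 at 0.23, Srsf5-208 at 0.18, Tra2b-206 at 0.075 and Smg6-202 at 0.21. limma put Clk2-204 at -0.0059 and Clk4-204 at 0.14. A pseudocount of 1 put Hnrnpl-213 at 0.0032. The replicate block put Clk4-204 at 0.077 and Hnrnpl-213 at 0.00016. The fit without Control 2 and 3 put Clk1-210 at -0.0069, Hnrnph3-204 at -0.0025, Hnrnpl-213 at 0.0044, Hnrnpll-203 at -0.0012, Luc7l3-204 at 0.028, Ptbp3-213 at 0.50, Srsf5-208 at 0.074 and Smg1-204 at -0.32. Leaving out Prmt5 KO 1 and 4 put Clk1-210 at -0.014, Clk2-204 at -0.0036, Hnrnpll-203 at -0.0015, Ptbp1-201 at -0.066, Srsf11-206 at 0.053, Srsf2-202 at 4.7e-05, Srsf3-201 at -0.018, Srsf4-204 at 0.054, Srsf6-201 at 0.014 and Smg1-204 at -0.21. It also put Smg6-202 at 0.052. Over the 8 fits without a library, Clk1-210 from -0.0028 to 0.030, Clk2-204 from -0.0075 to 0.0062, Clk4-204 from -0.18 to 0.26, Hnrnpl-213 from -0.0090 to 0.015, Hnrnpll-203 from -0.0032 to 0.0076, Luc7l3-204 from -0.045 to 0.0062 and Ptbp1-201 from -0.017 to 0.077 crossed 0. So did Smg1-204 from -0.25 to 0.31, Smg6-202 from -0.21 to 0.056, Snrpb-203 from -0.030 to 0.014, Srsf11-206 from -0.20 to 0.083, Srsf5-208 from -0.12 to 0.047 and Srsf6-201 from -0.029 to 0.0016. For Mtx1-205, Rbm38-206 and Hnrnpu-206 the ratio kept its direction in the other fits, and the transcript's level went the other way. Most of the other ratio changes were near 0, and no direction is claimed for them. Depth limits the scarce members: a member with a total of 80 averages 10 counts per library.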
